A study of Caenorhabditis elegans with 24 samples.

Results

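The genes klf-1, hlh-11 and xol-1 encode regulators of ageing, fat metabolism and sex determination in Caenorhabditis elegans, and small RNAs antisense to each of them were followed through 24 libraries. They are 3 of the 46726 features in the deposited table. They were chosen by their measured small RNA levels: low in meg-3 meg-4 mutants, returning at different generations in wild-type descendants of those mutants, and standing at different levels in a triple mutant that also carries hrde-1. These levels are therefore given as a description, with no test.

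In the worm germline, RNA-dependent RNA polymerases copy messenger RNAs into short antisense secondary siRNAs that carry a 5′ triphosphate. The disordered proteins MEG-3 and MEG-4 build the granules that embryonic germ cells inherit. HRDE-1 is a nuclear Argonaute that holds siRNAs in germ cell nuclei and passes their silencing on to progeny.

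The series covers whole young adults grown at 20 °C on E. coli OP50, with 2 libraries in each of 12 groups. The groups are N2 (wild type), the meg-3 meg-4 strain JH3225 (meg-3/4 from here on), the hrde-1; meg-3 meg-4 strain YY1512 (the triple mutant), and wild-type progeny bred from outcrossed meg-3/4. Descendants were taken in every generation from F3 to F7 and then at F10, F15, F20 and F25, and each mutant genotype is represented by a single strain. The sources used here do not give the number of lines behind the descendants. The labels call the libraries of a group biological replicates and say nothing of separate cultures, so the p-values below measure the spread between these samples, which may be technical.

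Library depth ranged from 392785 to 3420345 reads assigned to features. A single read is worth 5.47 normalized counts in F10 replicate 1 and 4.99 in F4 replicate 2, the shallow libraries, and 0.510 to 1.86 in the other 22. A normalized count is a read count divided by a size factor for its library, and the reads counted lie antisense to the annotated gene. The targeted genes matched their labels: small RNAs to meg-3 stood at 42.8 and 64.2 normalized counts in the N2 libraries and at 4.73 to 14.4 in the 4 mutant libraries. Those to hrde-1 stood at 1351 and 1360 in N2 and 599.9 and 629 in the triple mutant, lower but well above 0. In whole animals, fewer cells of a type and less RNA per cell cannot be told apart. Of the sperm markers, 12 of 35 had enough reads to be kept and 1, msp-19, was at 0 in every library. Their summed level was 239 to 245 normalized counts in N2, 144 to 158 in meg-3/4, 170 to 177 in the triple mutant and 201 to 355 in the descendants. The 12 oocyte markers, of which 10 were kept and none was at 0, summed to 2322 to 2365, 2018 to 2198, 2383 to 2470 and 1911 to 2291 in the same order. The sperm sum is weighted to spe-41, whose mean over all libraries was 114 normalized counts, with fer-1 next at 27.2. The median log2 difference of the 12 kept sperm markers between meg-3/4 and wild type was −0.15, so the sum does not stand for the list as a whole. The part of these cell types in the results below was not tested.

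KLF-1 is a zinc-finger transcription factor of the Krüppel-like family, studied in the worm for its part in lifespan. Its gene lies on the plus strand of chromosome III from 2874818 to 2880676 (Ensembl release 115, WBcel235), with 8 exons in 1 annotated transcript. HLH-11 is a basic helix-loop-helix transcription factor that represses genes of fat breakdown, among them the lipase gene atgl-1. The hlh-11 gene occupies the plus strand of chromosome III from 9619711 to 9626529 and has 8 annotated transcripts that share 16 distinct exons. XOL-1 is the early switch of sex determination: it is active in XO embryos, where it promotes male fate by repressing the sdc genes. The xol-1 gene is on the plus strand of the X chromosome from 8041313 to 8044409, with 3 transcripts and 10 distinct exons. The small RNA reads are summed over each gene, so the exon they fall in is not known. All 3 genes are protein-coding and had reads in all 24 libraries.

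In wild type, small RNAs to klf-1 were the most abundant of the 3 for the length of the gene. Per kilobase of exon, the mean normalized count was 419.9 for klf-1, 297 for hlh-11 and 117 for xol-1. In meg-3/4 klf-1 was instead the lowest, at 4.92 per kilobase, with hlh-11 at 11.1 and xol-1 at 11.7. These values for hlh-11 and xol-1 rest on 21 to 28 reads a library and do not set the 2 genes apart.

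Small RNAs to klf-1 numbered 726 and 803 normalized counts in the N2 libraries and 11.1 and 6.87 in meg-3/4, the latter from 10 and 7 reads. Wild type and mutant were far apart, and the mutant mean of 8.97 ± 2.96 (SD, n = 2) was 1.17% of the wild-type mean of 765 ± 54.1 (SD, n = 2), an 85.3-fold difference. Small RNAs to hlh-11 were at 627 and 671 normalized counts in N2 and at 27.7 and 20.6 in meg-3/4. The groups did not overlap here either, with a mutant mean of 24.1 ± 4.97 (SD, n = 2), 3.72% of wild type and 26.9-fold lower.

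Small RNAs to xol-1 started from a lower level and kept more of it. They were at 274 and 300.1 normalized counts in N2 and at 29.9 and 27.5 in meg-3/4, again with no overlap. The mutant mean of 28.7 ± 1.68 (SD, n = 2) was 9.996% of the wild-type mean. On the scale of log2(normalized count + 5), which understates the change of low features, the differences between meg-3/4 and wild type were −5.80 for klf-1, −4.50 for hlh-11 and −3.12 for xol-1. Ranked from the most negative among 8869 features kept for testing, these take places 2, 30 and 102. All 3 are lower, against 17.6% of kept features called lower and 8.28% called higher in meg-3/4 by limma, but this contrast was used to choose them and nothing is read from the count.

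**Figure D1:**
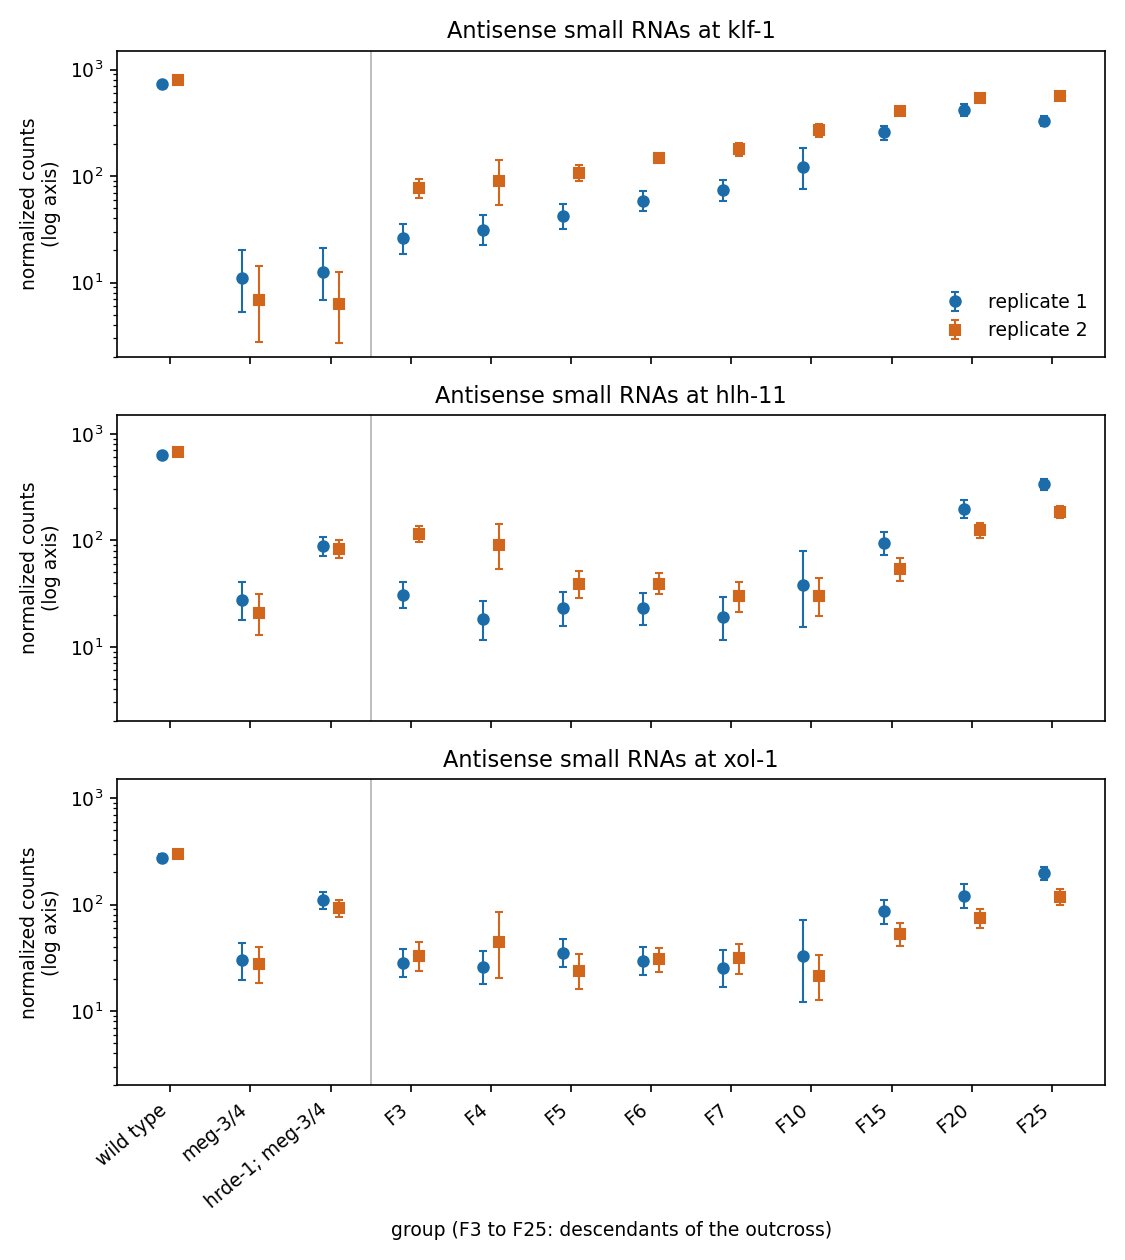
Normalized counts (log axis) of small RNAs to klf-1, hlh-11 and xol-1 in every library, by group; circles and squares are replicates 1 and 2 and bars are 95% exact Poisson intervals for counting error. For klf-1 the triple mutant lies on the meg-3/4 level, while for hlh-11 and xol-1 it lies above it.

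The triple mutant separated klf-1 from hlh-11 and xol-1. Small RNAs to klf-1 were at 12.6 and 6.31 normalized counts in the triple mutant, from 14 and 8 reads. These values enclose both meg-3/4 libraries, so the groups overlap, and the log2 difference between triple mutant and meg-3/4 was 0.03, which turned to −0.07 under quantile normalization. With so few reads a difference of less than the counting interval (5.30 to 20.3 normalized counts for the first meg-3/4 library, 95% exact Poisson) was not detectable at this depth.

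Small RNAs to hlh-11 stood at 88.2 and 82.8 normalized counts in the triple mutant, above both meg-3/4 libraries. The mean of 85.5 ± 3.87 (SD, n = 2) was 13.2% of wild type. Those to xol-1 were at 109.9 and 92.2, also above both meg-3/4 libraries, with a mean of 101 ± 12.5 (SD, n = 2) that is 35.2% of wild type. The log2 difference from meg-3/4 was 1.65 for each of these genes, and neither reached the wild-type range. Of all kept features, 10.6% were called higher and 8.63% lower in the triple mutant than in meg-3/4. This contrast, too, was part of the choice, so the share gives no reading of the 3 genes.

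In the descendants, small RNAs to klf-1 were above both meg-3/4 libraries from F3 on, in 18 of 18 libraries. In replicate 1 the normalized count was 25.98 at F3, 31.4 at F4, 42.2 at F5, 58.1 at F6 and 74.1 at F7. It went on to 120.3 at F10, 256 at F15, 417 at F20 and 331 at F25. Every step up to F20 was a rise in this series of libraries, and F25 was below F20.

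Replicate 2 of klf-1 was higher in every generation and went up at each step to F20, but its F25 value was above F20. Its normalized counts were 76.6, 89.8, 108, 148 and 178 at F3, F4, F5, F6 and F7. They were 268, 409, 542 and 569.6 at F10, F15, F20 and F25. The group mean went from 6.71% of wild type at F3 to 16.5% at F7, 25.4% at F10, 43.5% at F15, 62.7% at F20 and 58.9% at F25. None of the 18 libraries reached the wild-type range, and neighbouring generations overlap at every step from F3 to F25 except between F15 and F20.

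Small RNAs to hlh-11 stayed low for longer. In replicate 1 they were at 30.9, 18.1, 23.0, 23.0 and 18.99 normalized counts at F3, F4, F5, F6 and F7, then at 38.3, 95.02, 197 and 335 at F10, F15, F20 and F25. The F10 value rests on 7 reads (15.4 to 78.9, 95% exact Poisson interval). From F3 to F10 the replicate 1 values, 18.1 to 38.3, lay on either side of the meg-3/4 libraries, and each later library was higher than the one before.

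Replicate 2 of hlh-11 began higher and first went down. It was at 115.3, 89.8, 39.1, 39.3 and 29.8 normalized counts at F3, F4, F5, F6 and F7, the F4 value from 18 reads. It was at 29.8, 53.5, 124 and 185 at F10, F15, F20 and F25. The group mean went from 11.3% of wild type at F3 to 3.75% at F7 and then stood at 5.24% at F10, 11.4% at F15, 24.8% at F20 and 40.01% at F25, but the F3 mean of 73.1 ± 59.6 (SD, n = 2) has a spread close to its own size.

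Small RNAs to xol-1 were flat until F10. Replicate 1 stood at 28.5, 25.9, 35.3, 29.7, 25.6 and 32.8 normalized counts at F3, F4, F5, F6, F7 and F10. Replicate 2 stood at 33.2, 44.9, 23.9, 30.6, 31.3 and 21.5. These 12 values run from 21.5 to 44.9 around the meg-3/4 libraries, and those of the shallow libraries come from 6 reads (F10 replicate 1) and 9 reads (F4 replicate 2).

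From F15 on xol-1 moved clear of that band. Replicate 1 was at 86.4, 121 and 196 normalized counts at F15, F20 and F25, and replicate 2 at 52.7, 74.9 and 118. Group means were 24.2%, 34.2% and 54.8% of wild type. At F15 both libraries were above every earlier descendant library, and at F25 both were above the triple mutant, whose level the F20 libraries overlap.

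**Figure D2:**
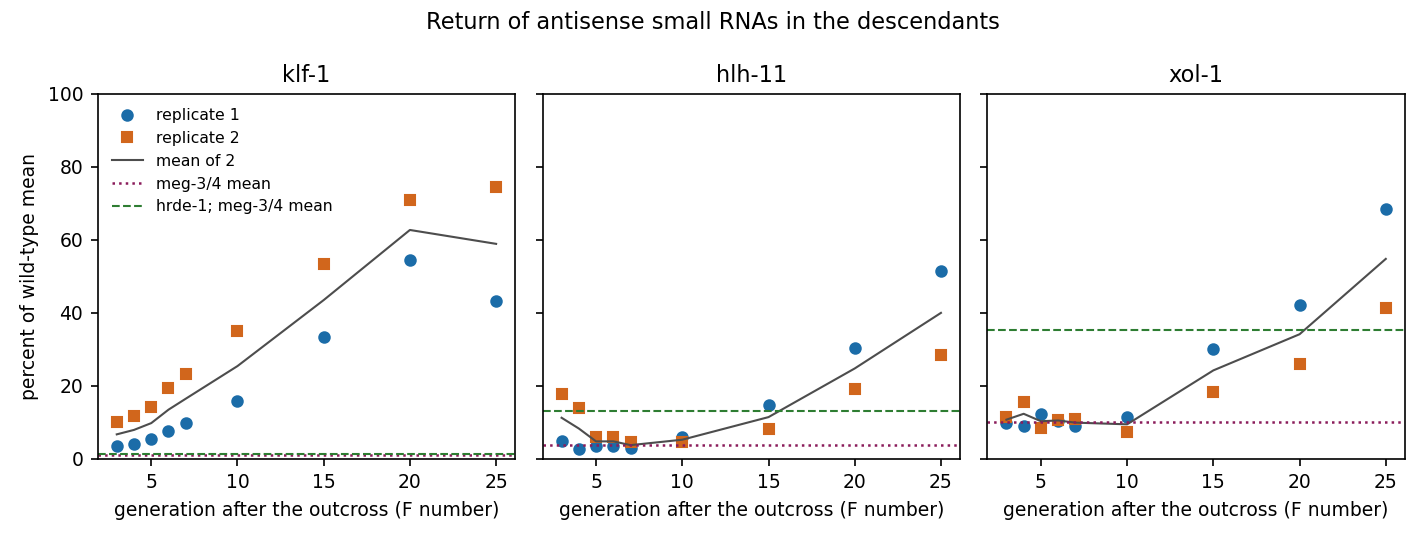
Level as a percentage of the wild-type mean against generation for klf-1, hlh-11 and xol-1; points are libraries, the solid line their mean, and the dotted and dashed lines the meg-3/4 and triple mutant means. At F10 klf-1 stood at 25.4% of wild type while hlh-11 stood at 5.24% and xol-1 at 9.46%.

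Ordered by level, the 12 groups give a different ladder for each gene. For klf-1 the order from the lowest was meg-3/4, the triple mutant, then F3 through F15 in the order of generation, F25, F20 and wild type. Gaps with no overlap lay only between the triple mutant and F3 and between F20 and wild type. For hlh-11 the first 9 groups, from meg-3/4 up to the triple mutant, each overlap the next, and gaps stood below F20 and below wild type. For xol-1 the first 7 groups overlap their neighbours, and gaps stood below F15 and below wild type. F25 (118 and 196) lay clear of the triple mutant, the group next below it by mean, but overlapped F20 (74.9 and 121).

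Of the descendant libraries, 18 of 18 were above both meg-3/4 libraries for klf-1, 14 for hlh-11 and 12 for xol-1. The lowest, median and highest descendant values were 25.98, 134 and 569.6 normalized counts for klf-1. They were 18.1, 39.2 and 335 for hlh-11, and 21.5, 32.98 and 196 for xol-1. Averaged over the 9 generations, the log2 difference from wild type was −2.38 for klf-1, −3.40 for hlh-11 and −2.54 for xol-1, beside 15.2% of kept features called lower and 6.28% called higher in that comparison. At F3 the differences were −3.93, −3.31 and −3.03, and at F25 they were −0.81, −1.36 and −0.89. The standard errors at F25 were 0.57, 0.54 and 0.29 in the same order. All 3 genes were below both wild-type libraries at F25, and the recovery was part of the choice of these genes. Limma called 0.417% of kept features lower and 0.631% higher at F25 (1.05% in all). A limma call is stricter than lying below both wild-type libraries, and the share of features doing the latter was not counted, so these shares give no reading of the 3 genes. A single library moves some of these values: the klf-1 difference at F3 was −4.63 without replicate 2 and −3.24 without replicate 1, that of hlh-11 at F3 was −4.19 and −2.44 in the same order, and at F25 the differences without replicate 2 and without replicate 1 were −1.19 and −0.42 for klf-1, −0.95 and −1.78 for hlh-11, and −0.54 and −1.24 for xol-1.

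The difference between the replicates of the descendants was not used to choose the genes and could be tested. Within each generation, klf-1 was higher in replicate 2 in 9 of 9 generations, by 1.30 to 2.95 times. The mean level was 265 normalized counts in replicate 2 and 151 in replicate 1. With generation as a factor, limma gave a log2 difference of 1.05 (SE 0.10, Benjamini-Hochberg adjusted p = 2.93e-05 over all kept features). In that test 2.07% of kept features were called, 1.23% higher and 0.846% lower in replicate 2, and leaving out any generation kept the difference between 1.01 and 1.14. The sources used here do not state whether libraries with the same replicate number come from the same line of animals. If they do, successive generations of a line are not independent samples, and the p-value does not measure the spread between lines. If they do not, a replicate number has no shared meaning across generations.

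For hlh-11 the replicate difference changed its direction along the generations, while for xol-1 it had mixed signs before F10. Replicate 2 was higher in hlh-11 in 5 of 5 generations from F3 to F7 and in 0 of 4 from F10 to F25. For xol-1 replicate 2 was higher in 4 of 5 and then in 0 of 4. Its log2 differences from F3 to F7 ran from −0.48 to 0.69, the highest with 9 reads in F4 replicate 2. In F10 replicate 1 the values rest on 7 reads for hlh-11 and 6 for xol-1. Over all 9 generations neither passed the test: the log2 difference was 0.34 (SE 0.27, limma adjusted p = 0.653) for hlh-11 and −0.21 (SE 0.15, limma adjusted p = 0.616) for xol-1. At F25 hlh-11 was 335 in replicate 1 and 185 in replicate 2 while klf-1 was 331 and 569.6 in the same libraries, so neither replicate was ahead for both genes.

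**Figure D3:**
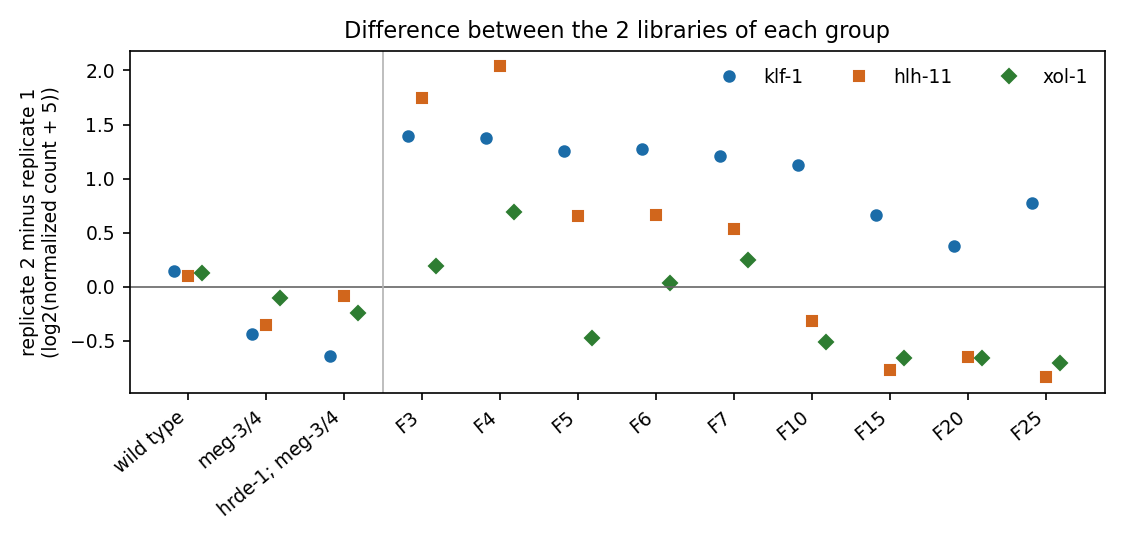
Difference between replicate 2 and replicate 1 in log2(normalized count + 5) in each of the 12 groups for klf-1, hlh-11 and xol-1. All 9 descendant points of klf-1 are above 0, while its meg-3/4 (−0.44) and triple mutant (−0.64) points are below 0. The descendant points of hlh-11 are above 0 from F3 to F7 and below 0 from F10 on.

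The features whose levels followed each gene most closely were found among 4469 features whose mean reached 50 normalized counts, by Pearson's r of log2 level over all 24 libraries. The libraries share groups and depth, so the r values are a description. The closest to klf-1 were Y69A2AR.31 (r = 0.973), Y53F4B.12 (0.956), Y38F2AR.12 (0.953), T19C3.6 (0.945) and mks-1 (0.944), the last of which encodes a protein of the ciliary transition zone. In the triple mutant these 5 stood at 1.31% to 8.02% of their wild-type means, and klf-1 itself at 1.24%.

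The feature closest to hlh-11 was xol-1 (r = 0.935). T05F1.13 (0.935), F32B5.6 (0.931), Y106G6D.1 (0.929) and K07E3.2 (0.912) came next. The closest to xol-1 were pab-2, which encodes a poly(A)-binding protein (r = 0.957), F42F12.3 (0.951), K07E3.2 (0.949), the pseudogene WBGene00022334 (0.946) and F34H10.3 (0.945). Of these last 5, 4 lie on the X chromosome with xol-1. The X-linked share of all compared features was not counted, so nothing is read from this. In the list for hlh-11, a gene of chromosome III, xol-1 and K07E3.2 are X-linked too. In the triple mutant the features listed for hlh-11 and xol-1 stood at 35.2% to 65.01% of wild type, with hlh-11 itself lower at 13.2% and xol-1 at 35.2%. The triple mutant libraries were among the 24 used to find these features, so a likeness there is partly built in. The correlation of klf-1 with hlh-11 was 0.63 and with xol-1 0.51, and hlh-11 took rank 354 among the features most like klf-1.

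**Figure D4:**
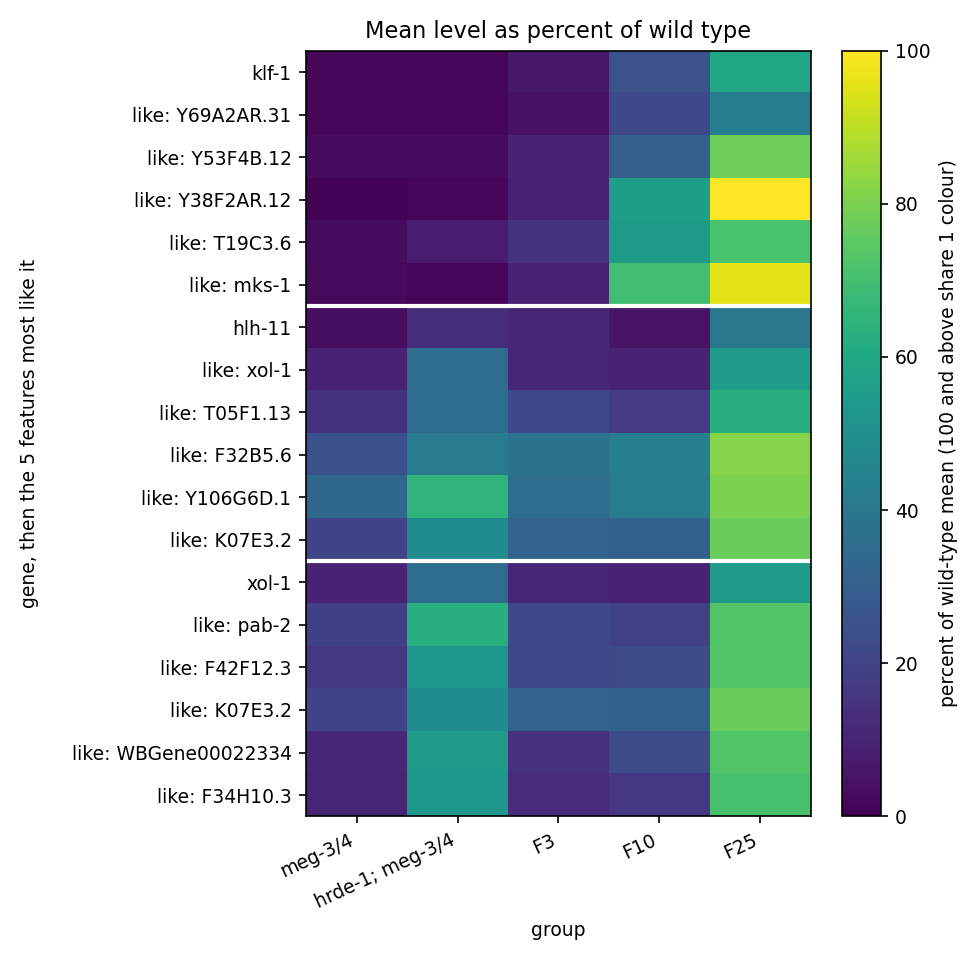
Group means as a percentage of wild type (colour) for klf-1, hlh-11 and xol-1 and for the 5 features most like each, in meg-3/4, the triple mutant, F3, F10 and F25. In the triple mutant the features listed with klf-1 are at 1.31% to 8.02% and those listed with hlh-11 and xol-1 at 35.2% to 65.01%, while hlh-11 itself is at 13.2%.

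Genes beside these loci gave a view of the neighbourhood. Of 16 features that overlap or flank the 3 genes, 6 had enough reads to be kept, and none of the 4 overlapping ones did. Beside klf-1, F56F11.4 was at 68.6 normalized counts in N2 and 66.6 in meg-3/4 (log2 difference −0.03, limma adjusted p = 0.945). F56F11.2, downstream of klf-1 and too low to be kept, was at 9.26 and 5.84 in N2 and listed at 0 in both meg-3/4 libraries.

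Beside hlh-11, hcp-3, which encodes the centromeric histone H3 variant, stood at 1388 in N2 and 1308 in meg-3/4 (−0.09, limma adjusted p = 0.583). F58A4.6 and rpac-19, also beside hlh-11, were not called in meg-3/4 (0.21 and −0.11, limma adjusted p = 0.729 and 0.841). The gamma-tubulin gene tbg-1 lies on the other strand and ends 6 bases from hlh-11, and its small RNAs were higher in meg-3/4, at 108 against 71.8 (0.56, limma adjusted p = 0.0209). Beside xol-1, C34D10.1, 9698 bases upstream, was lower in meg-3/4, at 3.56 against 22.1 (−1.66, limma adjusted p = 0.00401). It was higher in the triple mutant than in meg-3/4, at 25.6 (1.86, limma adjusted p = 0.00203). Its meg-3/4 values, 2.21 and 4.91, rest on few reads, since a single read is worth 1.11 and 0.982 there. The genes tbg-1 and C34D10.1 were the calls among the 6 neighbours in meg-3/4 against wild type, 1 higher and 1 lower, beside 25.9% of all kept features called. Leaving out a wild-type or meg-3/4 library left 0 or 1 of them, with 0 left without wild-type replicate 2 or without meg-3/4 replicate 1. The tbg-1 call was also absent when libraries were scaled to equal totals or when low features were not filtered out. Between the triple mutant and meg-3/4, limma also called tbg-1 lower (68.5 against 108, −0.62, adjusted p = 0.0135) and hcp-3 higher (1655 against 1308, 0.35, adjusted p = 0.0311).

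The pathways around the 3 genes were read from lists of 99 related genes, of which 49 were kept. In meg-3/4 7 of the 49 were higher and 8 lower than wild type, beside 25.9% of all kept features called in either direction, and the median log2 difference of the lists was 0.03 against −0.01 over all features. The balance depends on scaling: with equal library totals, which moves the median of all features to −0.33, 2 were higher and 20 lower, and with quantile normalization 11 were higher and 8 lower. Leaving out a wild-type or meg-3/4 library brought the 15 calls down to between 7 and 11. The fewest, 7, remained without wild-type replicate 1.

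Sex determination starts from signal elements that count X chromosomes against autosomes and act on xol-1. Of the 22 kept genes of this pathway and of dosage compensation, 3 were higher and 4 lower in meg-3/4, beside 8.28% and 17.6% of all kept features. The median log2 difference was −0.03, and with equal library totals 1 was higher and 11 lower. Among the signal elements, small RNAs to ceh-39, an X-linked repressor of xol-1, fell from 158 ± 10.5 to 75.5 ± 9.83 normalized counts (SD, n = 2; log2 −1.02, limma adjusted p = 0.00082). Those to sea-2, an autosomal activator of xol-1, fell from 318 to 198 (−0.65, limma adjusted p = 0.00699), a call that ended without wild-type replicate 1 (adjusted p 0.170) or meg-3/4 replicate 2 (0.0729).

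XOL-1 acts on the sdc genes, which turn on dosage compensation in XX animals. Small RNAs to sdc-1 fell from 69.5 to 38.7 (−0.78, limma adjusted p = 0.00337), a call lost without meg-3/4 replicate 1 (0.0672), while sdc-2, the main target of XOL-1, was at 22.6 and 22.2 in N2 and 26.5 and 18.7 in meg-3/4. The meg-3/4 values of sdc-2 enclose those of N2. In the dosage compensation complex, which lowers X expression in XX animals, 3 of 7 genes were higher and none lower, beside 8.28% and 17.6% of all kept features. Of the 3, dpy-21 (0.31, limma adjusted p = 0.048) and dpy-28 (0.35, 0.0382) were near the threshold. Equal library totals and DESeq2 each left only 1 gene of the whole pathway list higher. The condensin-like subunit gene dpy-27 went from 40.7 ± 6.83 to 132 ± 0.82 normalized counts (SD, n = 2; 1.59, limma adjusted p = 4.76e-06). Of the 8 kept genes from her-1 downward, 1 was lower, beside 17.6% of all kept features.

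Between the triple mutant and meg-3/4, 1 of the 22 was higher and 4 were lower, with a median of −0.15, beside 10.6% and 8.63% of all kept features, and with equal library totals 5 were higher and 2 lower. The lower genes were tra-3, a calpain gene that favours female development (72.4 to 28.5, log2 −1.20, limma adjusted p = 1.67e-05), dpy-21 (308 to 164, −0.89, limma adjusted p = 5.77e-06), ceh-39 (75.5 to 39.7, −0.85, limma adjusted p = 0.00504) and dpy-28 (219 to 148, −0.56, limma adjusted p = 0.00209). DPY-21 and DPY-28 are components of the dosage compensation complex. The calls of ceh-39 and dpy-28 were lost with equal library totals (0.0907 and 0.208), and that of ceh-39 also without meg-3/4 replicate 2 (0.0681) or triple mutant replicate 1 (0.0588).

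Among Krüppel-like and Sp factors, 2 of 5 were kept, and 1 of the 2 was lower in meg-3/4, beside 17.6% of all kept features. Small RNAs to klf-3 fell from 177 to 90.5 (−0.94, limma adjusted p = 0.0106) in meg-3/4, but the call was lost without wild-type replicate 1 (0.0501), wild-type replicate 2 (0.0645) or meg-3/4 replicate 1 (0.102). Beside the same 17.6%, 1 of 9 kept basic helix-loop-helix genes was lower in meg-3/4. This was hlh-30, the worm counterpart of the lysosomal regulator TFEB, at 84.9 ± 2.99 in N2 and 21.2 ± 1.89 in meg-3/4 (SD, n = 2; −1.78, limma adjusted p = 0.00276). The list medians were −0.29 for the Krüppel-like and 0.19 for the helix-loop-helix genes.

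Among fat metabolism genes, 16 of 29 were kept. In meg-3/4 4 were higher and 2 lower, beside 8.28% and 17.6% of all kept features, with a median of −0.06. With equal library totals 1 was higher and 7 were lower. Small RNAs to acs-2, an acyl-CoA synthetase gene of fat breakdown, fell from 127 ± 1.199 to 9.15 ± 5.12 normalized counts (SD, n = 2; −3.27, limma adjusted p = 1.66e-07). Those to fat-2, a fatty acid desaturase gene, fell from 43.97 ± 26.99 to 4.54 ± 3.30 (−2.29, limma adjusted p = 0.00151). The meg-3/4 values of fat-2, 2.21 and 6.87, rest on few reads, since a single read is worth 1.11 and 0.982 there. In the other direction nhr-13, a nuclear receptor gene, rose from 11.05 ± 0.07 to 72.7 ± 4.19 (2.27, limma adjusted p = 3.24e-06). The rise of nhr-49, a nuclear receptor gene that acts on acs-2, from 207 to 281 (0.43, limma adjusted p = 0.00612) was lost with equal library totals (0.765) and without wild-type replicate 1 (0.0504). Small RNAs to atgl-1, the lipase gene that HLH-11 represses, were at 78.7 and 76.5 in N2 and 85.2 and 75.6 in meg-3/4 (0.05, limma adjusted p = 0.867).

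In the triple mutant 3 of the 49 related genes were higher and 7 lower than in meg-3/4, beside 19.2% of all kept features called, and the list median was −0.03 against −0.01. The balance turned with equal library totals, which put the median of all features at 0.21 and gave 12 higher and 3 lower; with quantile normalization it was 2 and 7. Leaving out a library of either side left 5 to 9 calls. Fat metabolism gave 2 higher and 3 lower, beside 10.6% and 8.63% of all kept features. With equal library totals it gave 5 higher and 1 lower. Small RNAs to nhr-13 fell back from 72.7 to 9.91 (−2.40, limma adjusted p = 1.75e-06). Those to acs-2 rose from 9.15 to 26.97 (1.22, limma adjusted p = 0.00887) and those to fat-2 from 4.54 to 32.5 (1.98, limma adjusted p = 0.0062). Both rises were lost without meg-3/4 replicate 1 (0.162 and 0.0903) or triple mutant replicate 1 (0.0611 and 0.0848). The fall of pod-2, which encodes acetyl-CoA carboxylase, from 164 to 100.3 (−0.68, limma adjusted p = 0.0012) was lost with equal library totals (0.0851).

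**Figure D5:**
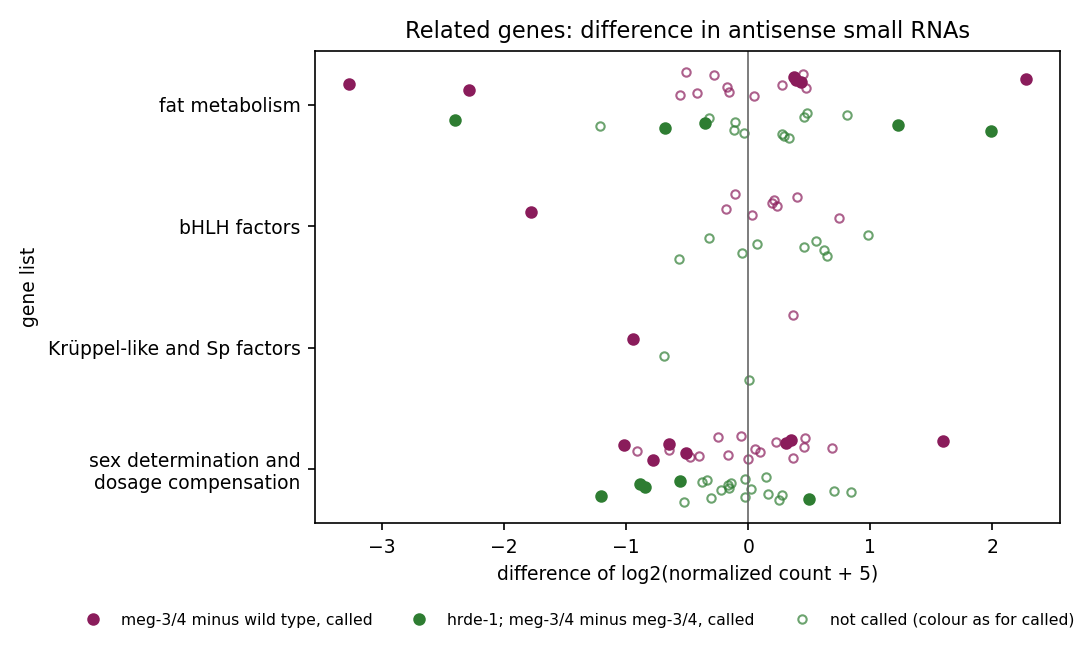
Difference in log2(normalized count + 5) for the kept genes of the 4 related lists, in meg-3/4 minus wild type and in the triple mutant minus meg-3/4; filled points passed limma's adjusted p of 0.05. The lowest filled point is acs-2 at −3.27 and the highest is nhr-13 at 2.27, both in meg-3/4.

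Averaged over the descendant generations, 2 related genes were higher than wild type and 4 lower, beside 21.5% of all kept features called, and the count rests on the wild-type libraries. It was 1 without wild-type replicate 1 and 0 without wild-type replicate 2, and 10 without F10 replicate 2. The lower genes were fem-3, which promotes male development (−0.94, limma adjusted p = 0.0109), tra-1, the last factor of the pathway (−0.59, 0.0498), tra-2 (−0.52, 0.0019) and lid-1 (−0.49, 0.0389). The higher genes were nhr-13 (0.92, limma adjusted p = 0.00318) and dpy-21 (0.31, 0.0106). Of the 29 alternatives run for each gene, the tra-1 call was lost in 19 (adjusted p = 0.0597 with a pseudocount of 1, 0.151 with quantile normalization and 0.127 with no filter in limma) and the lid-1 call in 11 (0.179 with quantile normalization). Equal library totals ended the dpy-21 call (limma adjusted p = 0.454). With that scaling 1 related gene was higher and 12 lower, and with quantile normalization 7 were higher and 2 lower. At F25 limma called none of the 49, edgeR and DESeq2 called none either, and 3 had an unadjusted p under 0.05. The genes klf-1, hlh-11 and xol-1 were below both wild-type libraries at F25 but were not tested, so they cannot be set against these calls. Lying below both wild-type libraries was not confined to them: tra-2 was at 131 and 127 at F25 and at 161 and 169 in N2.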

How the data were processed

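Per the submitters' processing notes, the authors trimmed, mapped, counted and normalized reads with cutadapt, Bowtie, featureCounts and DESeq2. The sources used here state no version, genome build, annotation or strand setting. The deposited signal is a read count over a library's size factor: whole reads, within 0.01, were recovered from 386038 of 386038 nonzero values, and the factors equal median-of-ratios ones. Of 46726 features, 46364 matched Ensembl release 115 (WBcel235), which gave symbols and positions, and 362 did not. The strand was read from 28 microRNA genes with a non-coding feature opposite, which was higher in 26. The 3 genes and all lists were chosen with earlier results of these data known.

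The 8869 features that reached 10 normalized counts in 2 or more libraries were tested on log2(value + 5) with limma 3.58.1 (R 4.3.3), intensity trend, fitted to the 12 groups together (12 residual degrees of freedom), two-sided, Benjamini-Hochberg adjusted, threshold 0.05. The replicate test used 18 descendant libraries (8 residual degrees of freedom). Per list and comparison, up to 4 called genes with the largest change are named, with all kept neighbours and the 5 most alike features. Alternatives were pseudocount 1, equal totals, quantile normalization, edgeR 4.0.16 and DESeq2 1.42.0 on recovered reads, no filter, a replicate block, only the groups compared, and each library left out. Intervals are 95% exact Poisson and cover counting error only, since PCR copies are not independent molecules. The labels do not say what a replicate number shares across groups, and the samples were not treated as paired in the comparisons of groups. Only the replicate test set the replicate numbers against each other across generations.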

Additional observations from a re-analysis of the deposited data

Results flagged for a closer look

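The difference between replicate 2 and replicate 1 of the descendants turned its sign for hlh-11. Its mean on the log2(normalized count + 5) scale was 1.13 over F3 to F7, positive in all 5 generations, and −0.642 over F10 to F25, negative in all 4. It was singled out because every generation of one period moved one way and every generation of the other the opposite way. The split into periods was chosen after the values were seen, and the difference between the periods was not tested. In the same libraries the mean for klf-1 was 1.30 and then 0.73, and for xol-1 it was 0.14 and then −0.63.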

How the results depend on the processing

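The levels of klf-1, hlh-11 and xol-1 kept their direction against wild type under every alternative run. With equal library totals the xol-1 difference between meg-3/4 and wild type was −3.44. Leaving out single libraries moved the F3 difference from −4.63 to −3.24 for klf-1 and from −4.19 to −2.44 for hlh-11, and the F25 difference of xol-1 from −1.24 to −0.54. The count of related genes in the descendants (6) was 13 with equal library totals, 15 with edgeR and 11 without the F4 replicate 2 and F10 replicate 1 libraries, a setting added after seeing the data. Leaving out single libraries gave 0 to 10 there, 7 to 11 for meg-3/4 against wild type (15), 5 to 9 for the triple mutant (10) and 0 to 1 for the neighbours (2). For the first 2 mutant comparisons edgeR called 21 and 13 related genes and DESeq2 12 and 8. Of 390 values of named genes under alternatives, 335 kept their call and 55 lost it. Replicate differences of wild type and meg-3/4 correlated at 0.111, of meg-3/4 and the triple mutant at 0.204, of wild type and F25 at 0.00947, and of 36 pairs of descendant groups at −0.0495 to 0.469, 22 of them over 0.1. Since not every pair was over 0.1, the numbers were not taken to pair the samples in the comparisons of groups. Many descendant groups still share part of their replicate difference. With the replicate block the related counts were 15, 11, 8 and 0 at F25, and 2 for the neighbours. In meg-3/4 each value of the 3 genes rests on 7 to 28 reads, which limits its precision.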

Other observations

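The gene bbs-4 encodes a subunit of the ciliary BBSome complex and was chosen after its values were seen. It is not among the neighbours of hlh-11 described above. Its small RNAs were at 97.2 and 22.8 normalized counts in the N2 libraries. They were at 15.5 and 6.87 in meg-3/4 and reached 462 and 388 in the triple mutant. The triple mutant libraries were above all others, and the 18 descendant libraries lay between 9.98 and 41.8. The log2 difference between the triple mutant and meg-3/4 was 4.78 (SE 0.44), given as a description because the values guided the choice of the gene.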
